A study of Homo sapiens with 15 samples.

Results

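The genes described here encode 5 chains of the fibrillar collagens (COL1A1, COL1A2, COL3A1, COL5A1 and COL5A2) and the 5 enzymes of the lysyl oxidase family (LOX and LOXL1 to LOXL4). They were chosen by symbol, and all 10 were found among the 19612 gene symbols of the table. RNA sequencing covered 15 libraries, 3 in each of 5 groups, and no group held more than 3. Parental H1975 cells given vehicle make up libraries 1a, 1b and 1c. The other libraries are from osimertinib-resistant H1975–OR cells: 2a, 2b and 2c were given vehicle, 3a, 3b and 3c were given 1,25(OH)2D3 at 100 nM, 4a, 4b and 4c osimertinib at 500 nM, and 5a, 5b and 5c the 2 agents together at these doses. H1975 is an established human lung adenocarcinoma line, osimertinib is an inhibitor of the EGFR kinase, and 1,25(OH)2D3 is the active hormone form of vitamin D. Both lines carry EGFR T790M and L858R according to the labels. H1975–OR is a single resistant derivative that is maintained in 500 nM osimertinib, so that its vehicle group is also a group from which the drug was withheld. No parental cells treated with either agent were analysed here, and all values are of RNA from cultured cells. Treatment lasted 96 h, with agents given at 0, 48 and 92 h, and RNA came from separate passages of the cells.

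Fibrillar collagens are secreted as procollagen molecules of 3 intertwined chains, trimmed outside the cell and packed into the fibers that give tissue its tensile strength. Type I collagen is usually assembled from the products of COL1A1 and COL1A2, type III collagen from COL3A1 alone, and type V collagen, which initiates fibrils and limits their width, from COL5A1 and COL5A2. Lysyl oxidases are copper-dependent enzymes that oxidize lysine residues of collagen and elastin, the step that leads to cross-links between neighboring chains. In carcinomas most fibrillar collagen is made by fibroblasts of the stroma, and its production by the epithelial tumor cells themselves is often described together with epithelial–mesenchymal transition (EMT).

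Library totals ranged from 4378030 to 6140120 estimated counts (median 4974785), so that 3 counts corresponded to between 0.477 and 0.708 CPM, the count of a gene scaled to a common library size. Levels below are CPM after trimmed-mean scaling over all 15 libraries. The study set aside a library of the 1,25(OH)2D3 group, and it was left out of every fit here too. This library, 3a, had the largest total and 1.54% of its counts in mitochondrial mRNAs, against 0.424 to 1.05% in the other 14. CYP24A1, the enzyme that inactivates 1,25(OH)2D3 and its best known target gene, was at 1020, 870 and 1470 CPM in 3a to 3c and at 3.31 to 8.59 CPM in 2a to 2c, as the treatment labels require. CDH1, the epithelial adhesion protein E-cadherin, was at 108 to 384 CPM in parental and 5.21 to 9.41 CPM in resistant vehicle cells. VIM, a mesenchymal filament protein, was at 2200 to 3030 and 2910 to 4190 CPM, with overlapping ranges. Its log2 fold change of 0.51 did not pass edgeR's quasi-likelihood test (adjusted p = 0.0763). Of 11 epithelial markers, all were above 3 counts in at least 1 H1975 library, with summed levels of 5480 to 7220 CPM there and 3690 to 4980 CPM across the resistant groups. The keratins KRT18 (1780 to 2920 CPM over all libraries) and KRT7 (452 to 1930 CPM) had the highest medians, so that the sum hides changes of weaker markers. EPCAM ran from 1.18 to 207 CPM, and SFTPB and NAPSA had at most 10 and 13 counts. Of 9 fibroblast markers, 3 to 5 per group exceeded 3 counts in any library. Their summed level was 62.3 to 110 CPM in H1975 and 232 to 254 CPM in H1975–OR with vehicle, and most of it came from S100A4 (58.0 to 236 CPM over all libraries). THY1, FAP and PDPN never exceeded 3 counts and DPT was at 0.

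**Figure D1:**
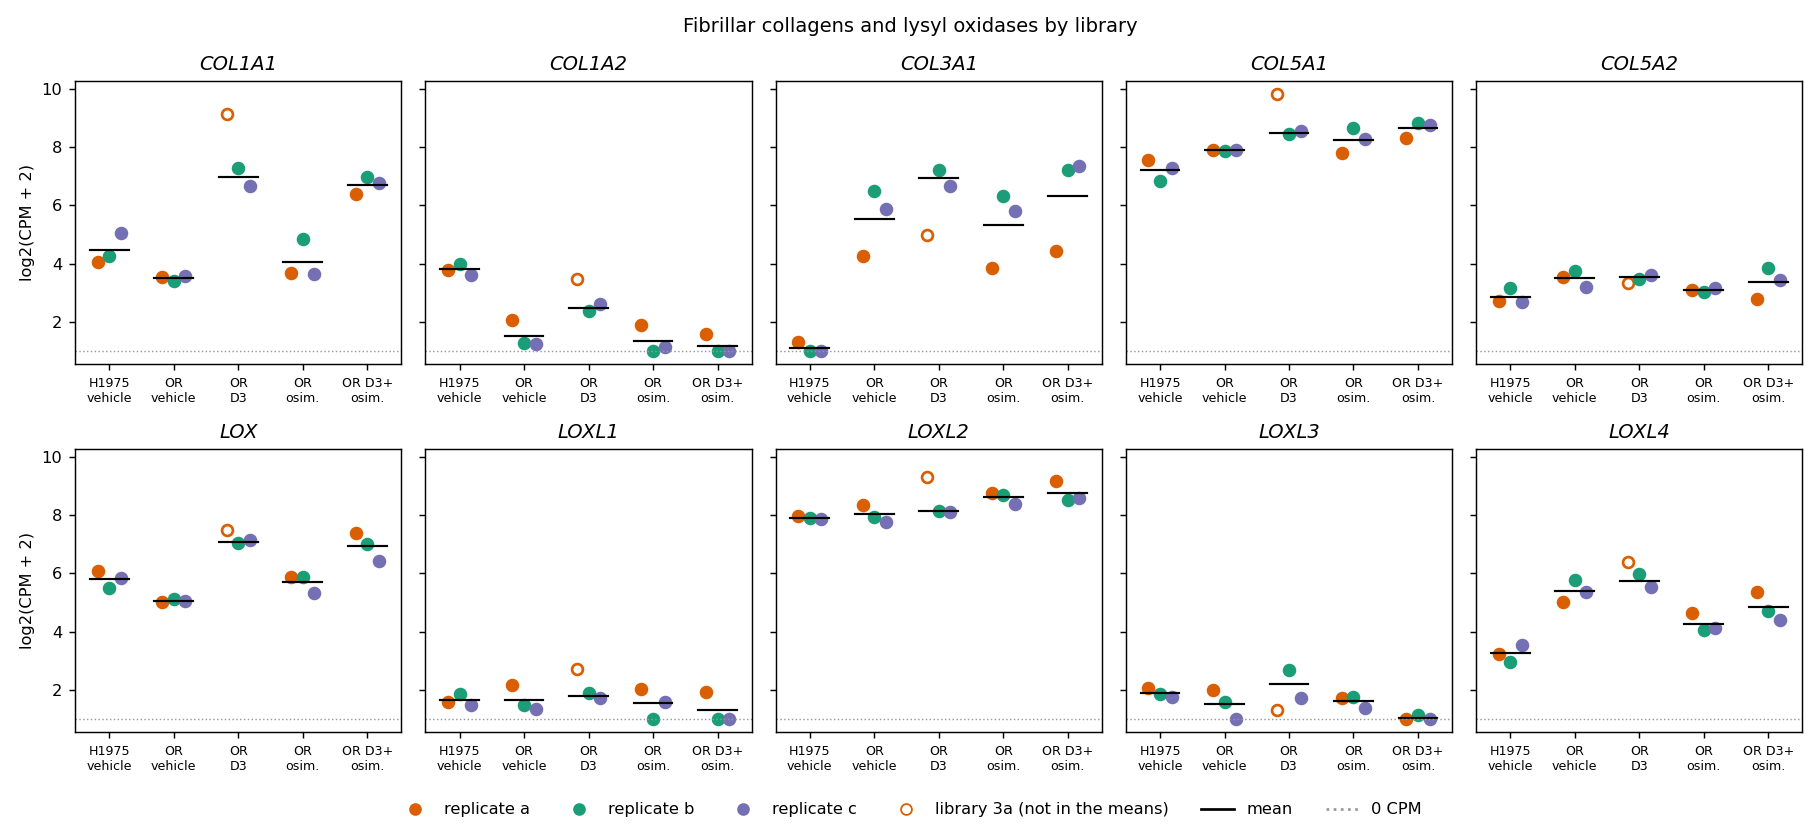
Level of each of the 10 genes in all 15 libraries, as log2(CPM + 2) on a common vertical axis, with the 5 groups along the horizontal axis; points are libraries colored by replicate letter, black lines are group means, and the open point is library 3a, which the means leave out. COL1A1 and LOX stand highest in both groups that received 1,25(OH)2D3, COL3A1 is near 0 CPM in the parental cells alone, and COL1A2, LOXL1 and LOXL3 lie near the bottom in the resistant cells.

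On the scale of CPM per kilobase of the longest annotated transcript, the family was dominated by LOXL2 and COL5A1 in every group. In H1975–OR with vehicle, LOXL2 was at 70.1 ± 15.1 (SD, n = 3) CPM per kilobase and COL5A1 at 28.0 ± 0.386, followed by LOXL4 (11.3 ± 3.10), COL3A1 (9.82 ± 6.51) and LOX (6.21 ± 0.257). COL1A1 (1.61 ± 0.122) and COL5A2 (1.39 ± 0.312) came next, and LOXL1, LOXL3 and COL1A2 were all under 1 CPM per kilobase. Libraries of COL3A1 overlapped in range with those of LOXL4 and of LOX, so that COL3A1 was not ordered beyond its spread, while LOXL4 and LOX did not overlap. Those of COL1A1 and COL5A2 overlapped too, as did those of the 3 lowest genes. This order depends on the transcript length used. The mean annotated length was 2.329 kb for LOX, 3.597 kb for LOXL4, 1.089 kb for COL1A1 and 3.697 kb for COL5A2. Per mean length, the mean level of LOX would lie above that of LOXL4, and COL1A1 above COL5A2. The parental cells had another order, with LOX (10.9 ± 2.28) and COL1A1 (3.55 ± 1.5) behind LOXL2 (63.9 ± 2.89) and COL5A1 (17.9 ± 4.39), and COL3A1 last at 0.0316 ± 0.0547 CPM per kilobase. Of the other fibrillar chains, COL2A1 and COL11A1 had at most 1 count in any library. COL27A1 was not negligible, with a mean of 7.85 CPM in H1975–OR with vehicle, not scaled by length. In that group COL1A1 and COL5A2 each had a mean of 9.51 CPM.

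The comparison of vehicle-treated H1975–OR with vehicle-treated H1975 asked which collagen and lysyl oxidase genes differed in the resistant state. In the resistant cells COL3A1 was present where it had been all but undetected, COL5A1 and LOXL4 were higher, and COL1A1, COL1A2 and LOX were lower. Thus 3 of the 9 genes that passed the filter on low counts were higher and 3 were lower by edgeR's quasi-likelihood test at an adjusted p under 0.05, beside 9.89% and 10.3% of all 12513 genes tested. LOXL1 was below the filter. The median of the 9 log2 fold changes was 0.15, beside 0.01 over all genes. Because the genes were picked with results known, these counts are a description of the family.

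COL3A1, the sole chain of type III collagen (chromosome 2, 188974373 to 189012746, forward strand, 51 exons, GRCh38), had 3, 0 and 0 counts in libraries 1a to 1c and 84, 428 and 291 counts in 2a to 2c. The resistant libraries were at 17.2, 88.5 and 56.1 CPM, and every one was far above every parental library. Over the groups this was 803 against 3 counts, a ratio of 290 with a 95% interval of 99 to 1410 that covers counting error only, and edgeR's adjusted p was 0.0012. The difference stayed past the threshold in each of the 13 alternatives that tested it, while the fitted log2 fold change went from 8.02 to 11.09 without 1a, which holds the 3 parental counts. The summed fibroblast markers were higher in the same group, at 232 CPM or more against 110 CPM or less. Of these markers, S100A4 was higher by 1.39 (adjusted p = 0.00284) and PDGFRB, a growth factor receptor of mesenchymal cells, by 2.65 on the log2 scale (5.37, 2.01 and 2.65 against 29.3, 18.8 and 15 CPM, adjusted p = 0.00468). LUM, a proteoglycan of collagen fibrils, had no count in the 3 parental and 26, 9 and 0 counts in the resistant libraries. DCN did not rise, with 6, 2 and 4 counts in the parental and 6, 0 and 7 in the resistant libraries. Nor did PDGFRA, with 1, 1 and 3 against 0, 0 and 3 counts. THY1, FAP, PDPN and DPT were at or under 3 counts. The part of these markers in the result was not tested. In such bulk RNA, more cells with the transcript and more transcript per cell cannot be told apart.

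The type I collagen chains went the opposite way. COL1A2 (chromosome 7, 94394895 to 94431227, forward strand, 52 exons) was at 11.8, 14 and 10.4 CPM in the parental and 2.25, 0.414 and 0.386 CPM in the resistant libraries, with 196 and 15 counts in all. The groups did not overlap, and the level was 11.5-fold lower in H1975–OR (log2 fold change -3.53 ± 0.64 SE, adjusted p = 0.00701). Library 2a holds 11 of the 15 resistant counts, and without it the log2 fold change was -4.84 (adjusted p = 0.000772). COL1A1 (chromosome 17, 50184101 to 50201632, reverse strand, 51 exons) was at 14.6, 17.3 and 31.1 CPM against 9.82, 8.69 and 10.0 CPM, again without overlap, but with parental library 1c well above the others. Its decrease of 2.17-fold (log2 fold change -1.12 ± 0.31, adjusted p = 0.0355) was near the threshold: it lost the call in 9 of 14 alternatives, among them the fits with 3a kept in and without 1b, 1c, 2a, 2b or 2c, with adjusted p from 0.00614 to 0.273 and log2 fold changes from -1.34 to -0.75.

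Of the type V chains, COL5A1 (chromosome 9, 134641803 to 134844843, forward strand, 66 exons) was at 186, 112 and 155 CPM in H1975 and at 239, 233 and 238 CPM in H1975–OR. Its 3 resistant libraries were nearly equal and all above the parental ones, a difference of 1.58-fold (log2 fold change 0.66 ± 0.17, adjusted p = 0.0273). This call was lost in 6 of 14 alternatives, including the fits with 3a kept in and without 1b, 1c, 2b or 2c (adjusted p from 0.00322 to 0.255). COL5A2 (chromosome 2, 189031898 to 189225312, reverse strand, 54 exons), the partner chain, was at 4.68, 6.93 and 4.48 CPM against 9.62, 11.6 and 7.33 CPM. Those groups did not overlap either, but the difference did not pass the test (log2 fold change 0.84, 95% interval 0.08 to 1.60, adjusted p = 0.111).

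Among the cross-linking enzymes, LOX fell and LOXL4 rose. LOX, the founding member of the family, was at 66.4, 43.2 and 55.8 CPM in the parental and 30.3, 32.9 and 31.4 CPM in the resistant libraries, 1.73-fold lower without overlap (log2 fold change -0.79 ± 0.17, adjusted p = 0.0128). LOXL4 was at 7.45, 5.83 and 9.77 CPM against 30.5, 52.5 and 38.8 CPM, 5.34-fold higher without overlap (log2 fold change 2.42 ± 0.29, adjusted p = 0.00123). Both calls held in all 14 alternatives. The promoters of these 2 genes, which moved apart, are shown from 250 bases before to 50 bases after the transcript start in the RefSeq annotation of GRCh38.p14, 5′ to 3′ on the strand of the gene. LOX lies on chromosome 5 from 122063195 to 122078413 (reverse strand, 7 exons) and its window is chr5:122078210-122078509. LOXL4 lies on chromosome 10 from 98247690 to 98268194 (reverse strand, 15 exons) and its window is chr10:98268145-98268444. Capitals mark matches, on either strand, to GGGCGG (the GC box) and CCAAT:
LOX: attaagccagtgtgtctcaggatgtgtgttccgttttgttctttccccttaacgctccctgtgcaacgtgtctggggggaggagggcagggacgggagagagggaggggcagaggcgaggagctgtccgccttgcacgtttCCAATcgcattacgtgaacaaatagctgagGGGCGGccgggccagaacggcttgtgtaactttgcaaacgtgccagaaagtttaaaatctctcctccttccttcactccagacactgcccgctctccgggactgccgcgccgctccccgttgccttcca
LOXL4: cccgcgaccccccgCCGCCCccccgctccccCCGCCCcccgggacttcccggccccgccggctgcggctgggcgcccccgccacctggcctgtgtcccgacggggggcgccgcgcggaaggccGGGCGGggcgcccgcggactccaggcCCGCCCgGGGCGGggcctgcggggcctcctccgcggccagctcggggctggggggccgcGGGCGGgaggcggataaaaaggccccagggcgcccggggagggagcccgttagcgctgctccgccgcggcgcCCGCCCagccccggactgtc
The LOX window held 1 GGGCGG and 1 CCAAT, and the LOXL4 window held 7 GGGCGG and no CCAAT, with no overlapping matches. GGGCGG was found in 44.6% and CCAAT in 35.7% of 27305 promoters of the same length. The G and C content was 58.0% for LOX and 85.3% for LOXL4. AGGTCA and GGTTCA, letters that occur in binding sites of nuclear receptors such as the vitamin D receptor, and TATAAA were found in neither window, and in 13.9%, 8.62% and 12.0% of all promoters. The table matched 5 of the 10 genes (COL5A1, LOX, LOXL1, LOXL3 and LOXL4).

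The remaining lysyl oxidases were not called. LOXL3, at 2.25, 1.64 and 1.42 CPM in H1975, was at 2.05, 1.03 and 0 CPM in H1975–OR, with 29 and 15 counts in all. LOXL1 had 4 to 9 counts per parental and 3 to 12 per resistant library. Neither gene could be read beyond its counting error at this depth.

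LOXL2, an abundant secreted member that is often studied in tumor invasion (chromosome 8, 23296897 to 23425328, reverse strand, 14 exons), was at 250, 234 and 229 CPM in H1975 and 324, 243 and 216 CPM in H1975–OR. The groups overlapped, and the log2 fold change of 0.15 had a 95% interval of -0.19 to 0.49 (adjusted p = 0.526), an interval that leaves no room for a difference as large as that of LOXL4. LOXL2 shares exonic sequence with ENTPD4 on its own strand, LOX with SRFBP1 and LOXL3 with HTRA2 and DOK1 on the opposite strand, so that counts of these genes could include reads of their neighbors.

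**Figure D2:**
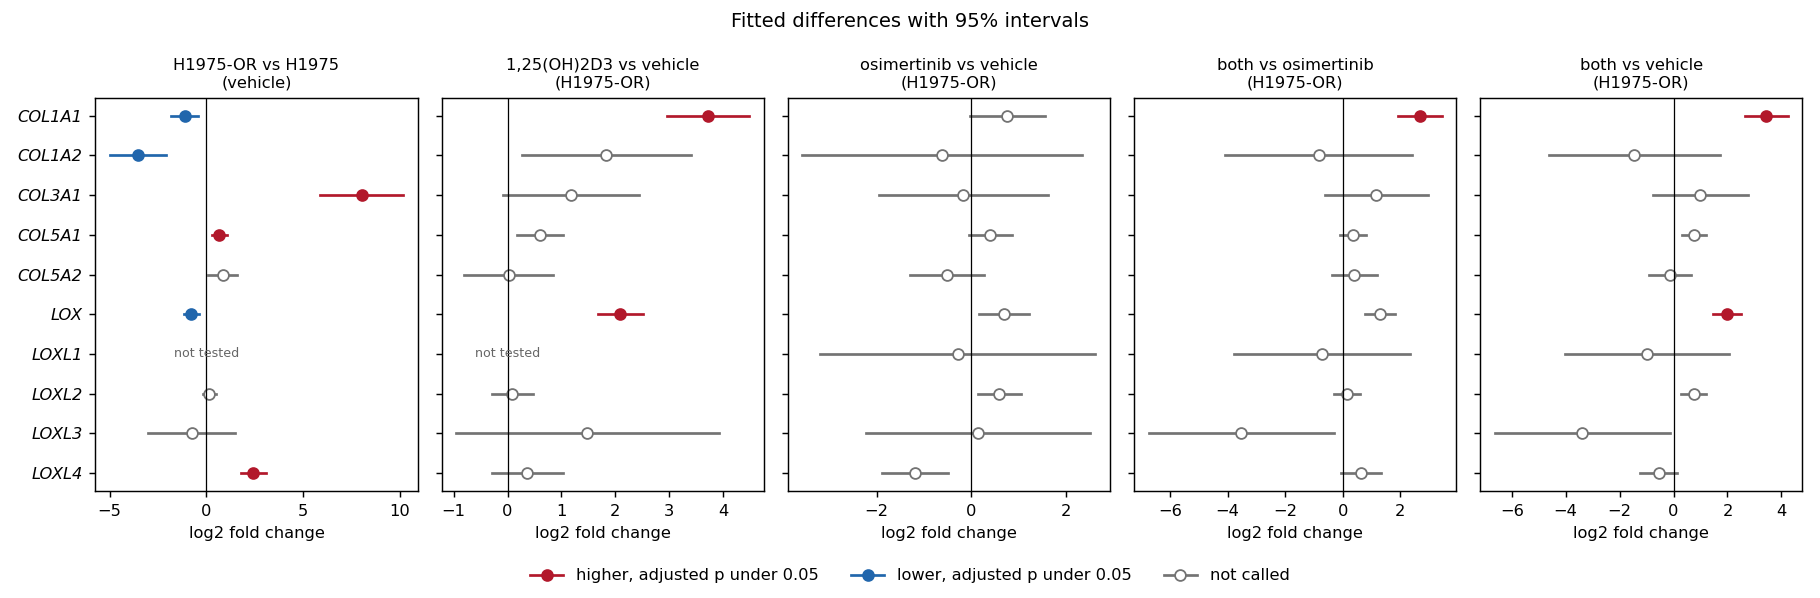
Fitted log2 fold change (horizontal axis, scaled separately in each panel) of the 10 genes with its 95% interval in 5 comparisons; filled points passed edgeR's quasi-likelihood test at an adjusted p under 0.05. Resistant over parental cells gave 3 higher and 3 lower genes, COL1A1 was higher in the 3 comparisons that added 1,25(OH)2D3, and osimertinib alone moved no gene past the threshold. The position of COL3A1 in the first panel rests on 3 parental counts.

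Genes that act with these chains were taken from 5 lists written from general knowledge. Their counts of calls stand beside 9.89% higher and 10.3% lower among all 12513 genes tested. Of 30 non-fibrillar collagens, 18 were tested, 8 were higher and 1 was lower in H1975–OR, with a median log2 fold change of 1.41 beside 0.01 over all genes. The called genes with the smallest p were COL8A1, a short-chain network collagen (30.1 to 97.0 against 471 to 622 CPM, log2 fold change 3.32, adjusted p = 0.00204), its partner COL8A2 (2.45, adjusted p = 0.00894), COL18A1, the precursor of endostatin (0.71, adjusted p = 0.00881), and COL17A1, a transmembrane collagen of epithelial hemidesmosomes and the one that fell (20.3 to 31.5 against 3.68 to 7.33 CPM, -2.09, adjusted p = 0.00467). Of 8 tested genes of 18 for propeptide processing and fibril assembly, 4 were higher and none lower, led by SPARC, a collagen-binding matricellular protein (88.9 to 171 against 542 to 1000 CPM, log2 fold change 2.63, adjusted p = 0.000951), and followed by THBS1 (0.92, adjusted p = 0.00358), TNXB (1.53, adjusted p = 0.0132) and POSTN, known as periostin (4.07, adjusted p = 0.0218). POSTN had 4, 0 and 0 counts in the parental and 17, 24 and 25 in the resistant libraries. Its call was lost without 1b, 1c, 2b or 2c (adjusted p up to 0.0626), and its log2 fold change was 7.49 without 1a. With 3a kept in, TNXB and COL18A1 were not called, and COL18A1 was not called with 14 libraries either. Without 1a the log2 fold change of COL8A1 was 4.10.

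Of 18 tested modification enzymes and chaperones of 20, which act on procollagen inside the cell, 3 were higher and 1 was lower. The median log2 fold change was 0.18 beside 0.01 over all genes. Over all 12513 genes 9.89% were higher and 10.3% lower, so that such small counts, like those of the receptors below, do not set the list apart. P4HA2, a prolyl hydroxylase subunit (0.98, adjusted p = 0.000956), FKBP14 (0.69, adjusted p = 0.0113) and SERPINH1, the collagen chaperone HSP47 (0.59, adjusted p = 0.0245), rose, and PLOD3, a lysyl hydroxylase, fell by 0.68 on the log2 scale (adjusted p = 0.0483). The call of PLOD3 was lost in 8 of 14 alternatives, among them the fits with 3a kept in, with the replicate block and without 1a, 1b, 1c, 2a or 2c (adjusted p from 0.015 to 0.125), and that of SERPINH1 in 5, with the block and without 1b, 1c, 2b or 2c (0.00152 to 0.0874). Of 7 tested collagen receptors of 10, the integrin chain ITGA1 alone was called (1.32, adjusted p = 0.0339), and it lost the call in 7 of 14 alternatives, with the block, with the compared groups fitted alone and without 1a, 1b, 1c, 2a or 2b (adjusted p from 0.0104 to 0.103). The remaining fibrillar chains gave 1 tested gene of 6, COL27A1, and it was not called (-0.36).

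**Figure D3:**
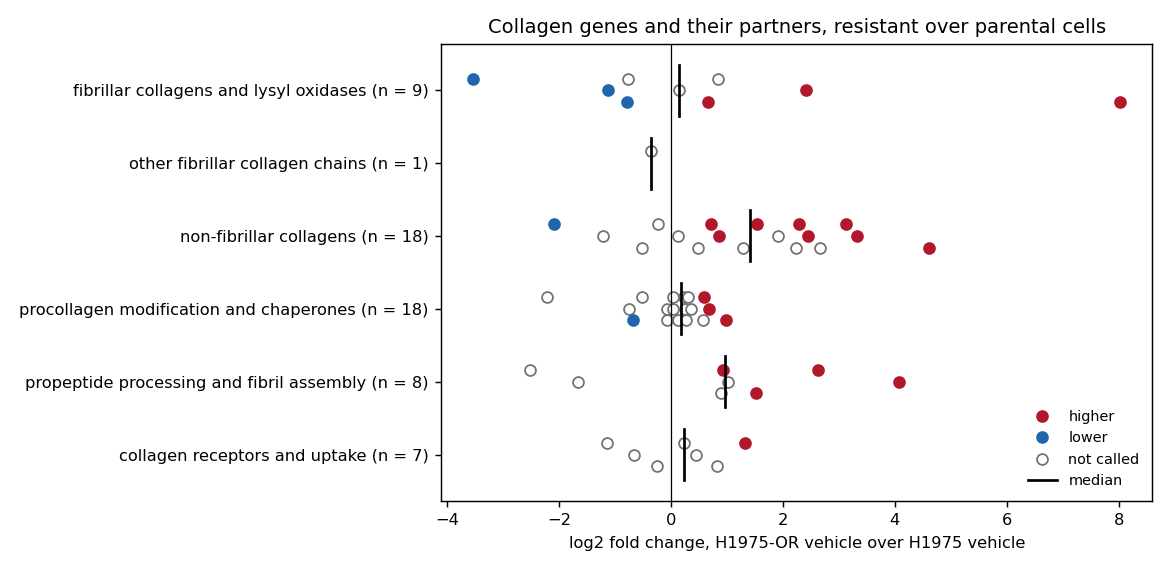
Log2 fold change of each tested gene, H1975–OR over H1975 with vehicle, for the fibrillar collagens and lysyl oxidases and for 5 lists of partner genes (vertical axis, with the number tested); black lines are list medians and filled points passed the test. Non-fibrillar collagens have 8 higher and 1 lower gene, and the modification enzymes and chaperones cluster around 0 with a median of 0.18. Over all genes tested, 9.89% were higher and 10.3% lower.

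The comparison of 1,25(OH)2D3 with vehicle in H1975–OR asked how the hormone acted on resistant cells. COL1A1 and LOX rose, and none of the other tested members passed the test. Of 9 tested genes 2 were higher and none lower by edgeR's quasi-likelihood test, beside 0.152% higher and 0% lower among all 12513 genes, which is 19 and 0 genes (456 and 454 at an unadjusted p under 0.05, 124 genes in all with DESeq2 and 9 with the replicate letter as a block). All 9 fitted log2 fold changes were above 0, with a median of 1.18 beside -0.01 over all genes. Those of COL5A2 (0.02) and LOXL2 (0.09) lay near 0, and they turned direction in 4 and 1 of 15 alternatives.

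COL1A1 was at 9.82, 8.69 and 10.0 CPM in vehicle libraries 2a to 2c and at 555, 152 and 99.4 CPM in the 1,25(OH)2D3 libraries 3a to 3c. Each treated library was far above each vehicle library, and 3a, which the fit leaves out, was the highest of the 15. From 3b and 3c the increase was 13.2-fold (log2 fold change 3.72 ± 0.33 SE, 95% interval 2.96 to 4.48, adjusted p = 0.00741). With the replicate letter as a block the log2 fold change was 3.62 and the adjusted p 0.0574, while the same block over all 11 H1975–OR libraries gave 3.54 and 0.00286. With 3a kept in, the log2 fold change was 4.83 (adjusted p = 0.0307). Over the 15 alternatives the adjusted p ran from 1.02e-19 to 0.0574.

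LOX was at 178, 130 and 138 CPM in 3a to 3c, far above the 30.3 to 32.9 CPM of the vehicle libraries. The increase was 4.25-fold (log2 fold change 2.09 ± 0.18, 95% interval 1.67 to 2.5, adjusted p = 0.00741), and 1 of 15 alternatives lost the call, the fit without 3c (adjusted p = 0.0592, range 1.32e-17 to 0.0592). With 3a kept in, it was 2.24 on the log2 scale (adjusted p = 0.0034). Since both comparisons share libraries 2a to 2c, the opposite signs for COL1A1 and LOX here and in the resistant–parental comparison are not independent. The treated levels can be set beside the parental ones: 126 ± 37.2 (SD, n = 2) CPM against 21.0 ± 8.89 (n = 3) for COL1A1 and 134 ± 5.18 against 55.1 ± 11.6 for LOX.

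COL1A2, the partner chain of COL1A1, was not called. It had 15 and 22 counts in 3b and 3c and 11, 2 and 2 counts in 2a to 2c, or 3.22 and 4.09 against 2.25, 0.414 and 0.386 CPM. The treated libraries were the higher ones, but the difference did not pass the test (log2 fold change 1.83, 95% interval 0.26 to 3.40, adjusted p = 0.597). Per kilobase, COL1A1 and COL1A2 were at 3.55 and 2.01 CPM in the parental cells and at 1.61 and 0.17 CPM in H1975–OR with vehicle. In H1975–OR they were at 21.3 and 0.610 CPM with 1,25(OH)2D3, 2.72 and 0.107 CPM with osimertinib, and 17.6 and 0.0558 CPM with both agents. The last COL1A2 value rests on 5 counts, all in library 5a. Between the 2 chains of type I collagen the ratio of these means was smallest in the parental line.

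COL3A1 was at 145 and 99.4 CPM in 3b and 3c and at 17.2, 88.5 and 56.1 CPM with vehicle, which did not pass the test (log2 fold change 1.18, 95% interval -0.08 to 2.45, adjusted p = 0.706). COL5A1 was at 344 and 374 CPM against 239, 233 and 238 CPM, without overlap but not called (0.60, interval 0.18 to 1.02, adjusted p = 0.494). COL5A2 was at 9.02 and 10.2 against 7.33 to 11.6 CPM, within the range of the vehicle libraries. Of the enzymes, LOXL4 was at 61.0 and 43.9 against 30.5, 52.5 and 38.8 CPM with overlapping ranges (0.37, interval -0.29 to 1.02, adjusted p = 0.857). LOXL2 was at 279 and 275 against 216 to 324 CPM (0.09, interval -0.29 to 0.47, adjusted p = 0.95), an upper bound well below the increase of LOX. LOXL3 had 21 and 7 counts against 10, 5 and 0. In 3a, which the fit leaves out, COL1A2 was at 9.07, COL3A1 at 29.4, COL5A1 at 902, COL5A2 at 8.11, LOXL4 at 82.2 and LOXL2 at 622 CPM, and LOXL3 had 3 counts. No tested gene of the 5 partner lists was called in this comparison.

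COL3A1 varied with the replicate letter. Letter a was the lowest of the 3 in all 4 groups of H1975–OR: the mean of b and c was 4.21 times the level of a with vehicle, 4.16 times with 1,25(OH)2D3, 5.21 times with osimertinib and 7.86 times with both. This pattern was found in 9.42% of 12627 genes. Within letters, the difference between 1,25(OH)2D3 and vehicle on the log2(CPM + 2) scale was alike, at 0.71, 0.70 and 0.80 for a, b and c. The corresponding differences were 5.56, 3.85 and 3.08 for COL1A1 and 2.48, 1.92 and 2.06 for LOX. COL1A2 and LOXL1 were higher in letter a than in b or c in each of the 4 groups, a pattern found in 9.65% of the 12627 genes. The letters a also had higher mitochondrial shares in 3 of those 4 groups (1.54%, 1.04% and 1.04%, against 0.424 to 0.697% in b and c), and the part of this in the differences was not tested.

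**Figure D4:**
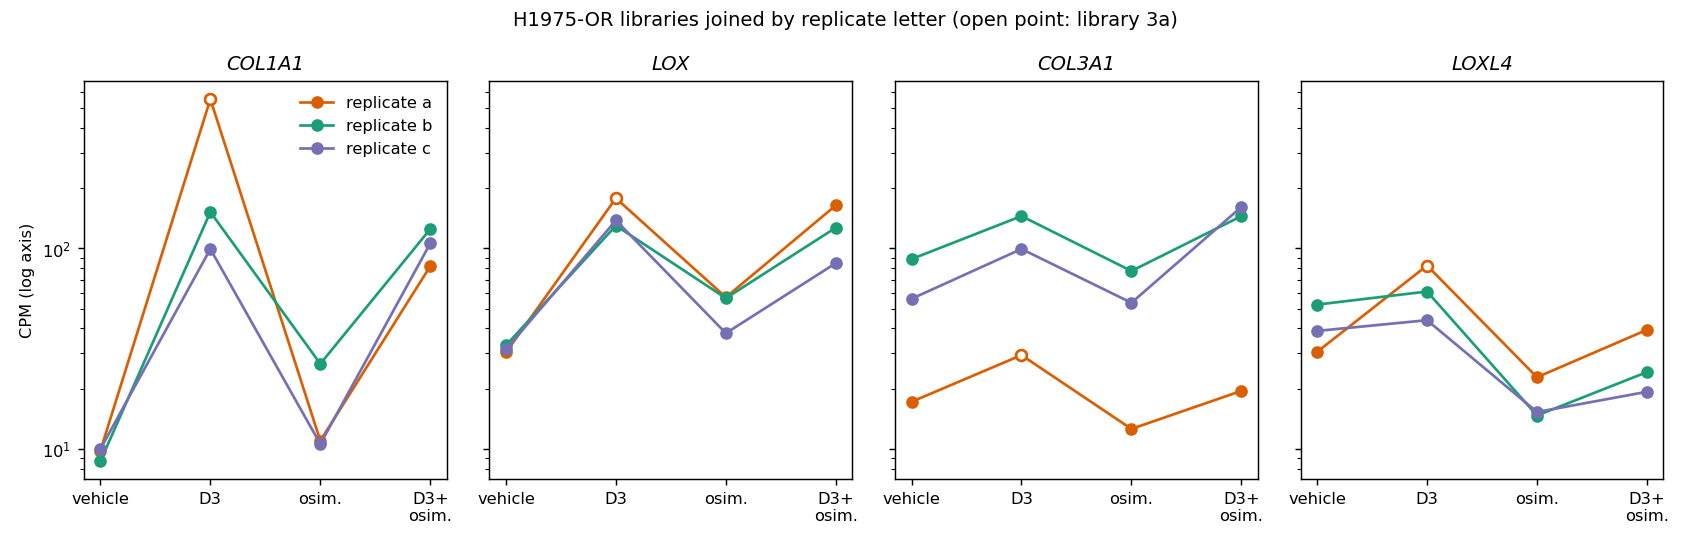
Level of COL1A1, LOX, COL3A1 and LOXL4 in the 12 H1975–OR libraries, in CPM on a common log axis, with the 4 treatments along the horizontal axis and lines joining libraries of the same replicate letter; the open point is library 3a. COL1A1 and LOX are higher with 1,25(OH)2D3, with and without osimertinib, in every letter, COL3A1 in letter a lies below b and c throughout (12.6 to 29.4 CPM), and LOXL4 is lower with osimertinib in every letter.

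Osimertinib against vehicle compared H1975–OR cells given the drug in which they are maintained with cells from which it was withheld. None of the 10 members, all of them tested, was called by edgeR (3 at an unadjusted p under 0.05; 0 of the 7 to which DESeq2 gave an adjusted p), beside 0.032% higher and 0.016% lower among 12503 genes. LOXL4 was at 22.8, 14.7 and 15.3 CPM with the drug and 30.5, 52.5 and 38.8 CPM with vehicle. All 3 treated libraries were below all 3 vehicle libraries, and the log2 fold change was -1.19 ± 0.32 (95% interval -1.89 to -0.49, adjusted p = 0.347). LOXL2 was at 430, 411 and 332 against 324, 243 and 216 CPM (0.59 ± 0.21, adjusted p = 0.518) and LOX at 57.1, 56.5 and 37.8 against 30.3 to 32.9 CPM (0.68 ± 0.24, adjusted p = 0.518). For each of these enzymes the groups did not overlap and the 3 same-letter differences had one sign, yet none passed the correction over all genes.

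The collagen chains were as uncertain under osimertinib. COL1A1 was at 11, 26.6 and 10.6 CPM, with 4b alone clearly above the vehicle libraries (log2 fold change 0.76, interval -0.03 to 1.55, adjusted p = 0.673). COL5A1 was at 218, 404 and 311 CPM around the 233 to 239 CPM of vehicle (0.40, adjusted p = 0.724). COL3A1, at 12.6, 77.2 and 53.6 CPM, was near its vehicle level within each letter (-0.40, -0.19 and -0.06 on the log2(CPM + 2) scale). COL5A2 was at 6.14 to 6.95 CPM, below the 7.33 to 11.6 CPM of vehicle (-0.52, adjusted p = 0.839). COL1A2, LOXL1 and LOXL3 had between 0 and 11 counts per osimertinib library. With the block the calls over all genes went from 6 to 35 and still held no member.

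With osimertinib present, 1,25(OH)2D3 again raised COL1A1. Libraries 5a to 5c, with both agents, were at 81.6, 125 and 106 CPM, and every one was above the 10.6 to 26.6 CPM of osimertinib alone. The increase was 6.41-fold (log2 fold change 2.68 ± 0.34, 95% interval 1.92 to 3.44, adjusted p = 0.0256). This was the 1 higher member of 10 tested, and none was lower, beside 0.056% and 0.04% of 12503 genes. The call was lost in 6 of 14 alternatives, including the fits with 3a kept in and without 4a, 4c, 5b or 5c, with adjusted p from 6.9e-11 to 0.366 and log2 fold changes from 2.46 to 3.25, and without all letter a libraries no member was called (adjusted p = 0.132 for COL1A1).

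LOX was at 164, 127 and 84.5 CPM with both agents against 57.1, 56.5 and 37.8 CPM with osimertinib. The groups did not overlap, and the log2 fold change of 1.30 ± 0.23 (95% interval 0.78 to 1.82, adjusted p = 0.172) was not called, although with the replicate block it was (1.28, adjusted p = 0.0448; range over 14 alternatives 0.000247 to 0.616). The block raised the calls over all genes from 12 to 33. COL3A1 was at 19.5, 145 and 161 against 12.6, 77.2 and 53.6 CPM, higher within each letter (0.56, 0.89 and 1.55 on the log2(CPM + 2) scale) but not called (1.17, interval -0.62 to 2.96). LOXL4 was at 39.3, 24.2 and 19.3 CPM, also higher within each letter and not called (0.64, interval -0.06 to 1.34). LOXL3 had 0, 1 and 0 counts with both agents and 7, 7 and 3 with osimertinib (log2 fold change -3.53, adjusted p = 1). COL5A1, COL5A2 and LOXL2 had intervals that included 0, and COL1A2 and LOXL1 had at most 9 counts per library with both agents.

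Against vehicle, the combination raised COL1A1 10.8-fold (log2 fold change 3.44 ± 0.36, adjusted p = 0.00483) and LOX 3.95-fold (1.98 ± 0.24, adjusted p = 0.00942), again without overlap. These were the 2 higher members of 10 tested, and none was lower, beside 0.384% and 0.112% of 12503 genes. COL1A1 lost the call without 2c and with 3a kept in (adjusted p up to 0.0569), and LOX lost it without 2b or 2c and with the compared groups fitted alone (up to 0.084). COL5A1, at 319, 453 and 435 against 233 to 239 CPM (log2 fold change 0.76 ± 0.20, adjusted p = 0.166), and LOXL2, at 573, 366 and 379 against 324, 243 and 216 CPM (0.75 ± 0.21, adjusted p = 0.179), did not overlap with vehicle and were called with the replicate block, at adjusted p of 0.0427 and 0.0124, which also took the calls over all genes from 62 to 461. The mean of LOXL4 lay between those of vehicle and osimertinib (-0.56, interval -1.24 to 0.13). Its libraries differed in sign from vehicle, by 0.35, -1.06 and -0.93 for letters a, b and c on the log2(CPM + 2) scale. In the partner lists a single gene was called, COL4A3, a chain of basement membrane collagen (27.7, 55.2 and 58.3 against 6.14, 2.69 and 5.21 CPM; log2 fold change 3.31, adjusted p = 0.0398). Its call was lost in 7 of 14 alternatives, with 3a kept in, with the compared groups fitted alone and without 2a, 2b, 2c, 5b or 5c (adjusted p from 9.1e-07 to 0.19).

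Whether the response to 1,25(OH)2D3 differed with osimertinib present was tested as an interaction. Neither direction held a called gene (0% of 12503 by edgeR, with 153 and 177 genes at an unadjusted p under 0.05 and 11 called by DESeq2), and 0 of the 10 members were called by either tool. For COL1A1 the difference between both responses was -1.04 on the log2 scale with a 95% interval of -2.14 to 0.06, and for LOX it was -0.79 with an interval of -1.56 to -0.02 (adjusted p = 1 by edgeR's quasi-likelihood test). Smaller responses beside osimertinib therefore lay within the intervals, as did nearly equal ones. The interval of COL3A1, -2.67 to 2.64, was too wide to bound the difference usefully.

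COL1A1 and LOX were also compared with all other genes over the 14 libraries without 3a. By Pearson correlation of log2(CPM + 2) among 12809 genes, the 3 most alike genes outside the family were the same for both: CYP24A1 (r = 0.935 with COL1A1 and 0.913 with LOX), ALPI, an intestinal alkaline phosphatase (0.934 and 0.888), and SEMA3B, a secreted semaphorin (0.916 and 0.885). COL1A1 and LOX themselves correlated at 0.91. By Spearman correlation SEMA3B remained among the first 3 of each, together with AFAP1L2 and CRIP1 for COL1A1 and CRIP1 and MELTF for LOX. ALPI was at 0 to 0.41 CPM in the libraries without 1,25(OH)2D3 and at 4.47 to 9.85 CPM in the 5 with it that were used. The 14 points fall into treated and untreated libraries and come from 5 groups, so that these values mostly restate the treatment difference. Within the family, COL1A1 correlated at 0.607 with COL5A1, 0.432 with COL3A1 and -0.095 with COL1A2.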

How the data were processed

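The authors prepared libraries with the TruSeq Stranded Total RNA kit after rRNA removal, quantified reads with Kallisto against the human genome and summarized transcripts to genes with tximport. The submitters' processing notes also name CASAVA 1.8.2, STAR 2.5.2b, kallisto 0.43.0 and GRCh38; strand settings and annotation were not given in the sources used here. The deposited values are estimated counts per gene, not normalized, for 15 libraries with 4378030 to 6140120 counts each. They were rounded to whole numbers. Genes were filtered with filterByExpr (minimum count 10, total 15), scaled by the trimmed mean of M values, and tested with edgeR 4.0.16 in R 4.3.3 (quasi-likelihood test, Benjamini–Hochberg adjustment over all genes, threshold 0.05; scripts were tested on simulated data). A fit of 8 libraries (H1975 and H1975–OR with vehicle, and 3b and 3c) gave the resistant–parental and 1,25(OH)2D3 comparisons, and one of 11 H1975–OR libraries gave the others; both left out 3a. Intervals are 95% intervals of these fits. The p-values measure the spread between passages within a line, H1975 or H1975–OR, and not between independently derived resistant lines. Levels shown as log2 used CPM + 2. Gene positions and transcript lengths are from GENCODE on GRCh38 and promoters from RefSeq.

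Replicate letters come from the labels. Deviations from group means correlated between same-letter libraries at 0.118 to 0.341 for vehicle with each other H1975–OR group and at 0.258 to 0.464 for osimertinib with both agents, in 3 of 3 pairs each, and at -0.03 to 0.022 between H1975 and H1975–OR. Letters were therefore taken to pair the former comparisons. The main fits nevertheless held no term for the letter, so that their p-values are unpaired. The block was run as an alternative. Alternatives were other scaling, DESeq2 1.42.0, other filters, 3a kept in, the block, other sets of libraries, and each library left out. The 10 genes, the lists and the rules for naming genes were chosen with earlier results of these data known. From each list at most the 4 called genes with the smallest p were named per comparison, and for COL1A1 and LOX the 3 most correlated genes.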

Additional observations from a re-analysis of the deposited data

Results flagged for a closer look

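Library 3a, an H1975–OR library of the 1,25(OH)2D3 group, entered no fit and was the highest of all 15 libraries for 6 of the 10 genes. The share of all genes that were highest in 3a was not determined, so this count does not set the 10 genes apart. Library 3a also had the most genes with a count (15148). COL1A1 was at 555 CPM there, against at most 152 CPM elsewhere, and LOX was at 178 CPM, against at most 164 CPM. COL5A1 was at 902 CPM, LOXL2 at 622 CPM, LOXL4 at 82.2 CPM and LOXL1 at 4.61 CPM. For COL1A2 (9.07 CPM), COL3A1 (29.4 CPM), COL5A2 (8.11 CPM) and LOXL3 (0.477 CPM) it was not the highest. Groups of 3 libraries were not tested for outlying libraries, and 0 of the 10 genes had a called interaction by edgeR's quasi-likelihood test or by DESeq2.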

How the results depend on the processing

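Over the alternative fits (without letter a not counted) of the log2 fold changes of the 10 genes, 749 values kept the direction and side of the threshold, 28 lost a call, 7 gained one and 30 turned the direction; the cause was not tested. COL1A2, COL3A1, LOX and LOXL4 kept their calls between the lines in every alternative that tested them, and no alternative turned a called gene. COL1A2 in H1975–OR, LOXL1 and LOXL3 are limited by depth, with few counts per library, H1975–OR is 1 subline, and the 1,25(OH)2D3 group has 2 libraries in the fits.

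Calls over all genes moved as follows. H1975–OR against H1975 gave 2521, and 1636 with 3a kept in; the letters do not pair these lines, and the block gave 1038 higher and 1112 lower genes without COL1A1. The 1,25(OH)2D3 comparison gave 19, and 124 with DESeq2, 32 without the filter, 29 with 10 counts in every library and with 14 libraries, 9 with the replicate block and with the compared groups alone, and 12 and 48 over 11 libraries without and with the block; the block left 1 of 2 members called. Osimertinib gave 6, and 117 with DESeq2, 35 with the block, 12 with 14 libraries, 2 with the groups alone, and 80 without letter a, an alternative chosen after seeing the data. Both agents against osimertinib gave 12, and 66 with DESeq2, 33 with the block, 5 with 3a and 2 with the groups alone. Of its members (1 called), 2 were called with DESeq2 and with the block, and 0 with 3a, with the groups alone and without letter a. Both agents against vehicle gave 62, and 364 with DESeq2, 461 with the block, 285 without letter a, 98 with 14 libraries, 25 with 3a and 8 with the groups alone. Of its members (2 called), 4 were called with DESeq2, with the block and without letter a, and 1 with 3a and with the groups alone. The interaction gave 0, and 11 with DESeq2. The block changed no member's call beyond those given with the results.

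Leaving out 1 library at a time gave 1426 to 2835, 5 to 18, 1 to 29, 3 to 9, 4 to 110 and 0 to 1 calls in these 6 comparisons in turn, with 1 to 2, 0 to 1 and 0 to 2 members called for 1,25(OH)2D3, both against osimertinib and both against vehicle.

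Turned directions were all of log2 fold changes that were not called. LOXL2 between the lines went to -0.018 without letter a (-0.056 to 0.269 with single libraries left out). With 1,25(OH)2D3, COL5A2 went to -0.056 with 3a and -0.065 with 11 libraries and the block (left out: -0.138 to 0.186). LOXL2 ranged from -0.032 to 0.275 with single libraries left out, and it kept its direction with 3a kept in, at 0.596. With osimertinib, the ranges with single libraries left out were -3.011 to 0.67 for COL1A2, -0.706 to 0.377 for COL3A1, -0.63 to 0.284 for LOXL1 and -0.433 to 0.434 for LOXL3. For both against osimertinib, LOXL2 was -0.005 without letter a (-0.078 to 0.277), and COL1A2 ranged from -4.712 to 1.563. For both against vehicle, COL5A2 was 0.17 without letter a (-0.45 to 0.169). In the interaction, COL3A1 was 0.413 with 3a, 0.446 with the block, 0 with 14 libraries and 0.459 without letter a (-0.564 to 0.52), LOXL2 was -0.428, -0.129 and, without letter a, -0.276 (-0.175 to 0.189), and LOXL4 ranged from -0.083 to 0.524.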
